A study of Mus musculus with 12 samples.

Results

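The genes described here are 45 genes of the G1/S transition and of DNA replication, chosen by gene name from the complete table of each genotype. All 45 were listed both among the 13027 genes of the knockout and among the 13331 genes of the wild type, which have 12590 genes in common, and all 45 were tested in every comparison. They cover origin licensing (4 genes), the MCM helicase and its CMG partners (12), the polymerases and primase (8), the sliding clamp and its loaders (7), single-strand binding, flap removal and ligation (4), nucleotide supply (3), G1/S regulators (5), and a histone mRNA factor with a chromatin factor (2).

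RNA was sequenced from C2C12 cells, an established mouse myoblast line, in 4 groups: Ddx27-/- polysomal RNA (3 libraries), wildtype polysomal RNA (3), Ddx27-/- total cellular RNA (2, with the third labelled sample not analysed here) and wildtype total cellular RNA (3). Ddx27 encodes a nucleolar DEAD-box protein that takes part in the maturation of ribosomal RNA, and polysomal RNA is the mRNA that sediments with several ribosomes. No agent, time point, clone number or way of making the knockout is given in the labels, and whether replicate libraries stem from separate cultures is not stated. P-values therefore measure only the spread between these libraries. Knockout libraries carry the numbers of their table columns, which do not match sample titles by number, and KO and WT stand for Ddx27-/- and wildtype below.

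Before S phase, the origin recognition complex, Cdc6 and Cdt1 load the MCM helicase onto origins. Cyclins D and E with their kinases then free the E2F factors, which activate many genes of replication, and GINS and Cdc45 join MCM to form the working CMG helicase. Myoblasts in growth medium cycle, and they leave the cycle before they fuse into myotubes.

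Reads in listed genes ran from 13683674 to 27347878 per library, and the members had between 102 reads (Orc1) and 13112 reads in a library. The deposited values are normalised read counts, put here on 1 common scale across both genotypes because the authors scaled the 2 genotypes' tables separately. Ddx27 itself had 54.2, 42.5 and 31.5 normalised read counts in KO polysomal libraries, against 199.6, 142 and 203 in WT polysomal libraries, and 41.8 and 47.4 in KO total libraries, against 145, 139 and 135 in WT total libraries, a log2 fold change of -2.08 and -1.63. Of 7 myoblast markers, Myod1, the myogenic master factor, was nearly absent from the knockout: it had 0.382 and 1.19 in KO total libraries, against 132, 132 and 172 in WT total libraries, and 0, 0 and 0.0866 in KO polysomal libraries, against 65.4, 97.7 and 74.8 in WT polysomal libraries. In KO against WT total libraries 5 of the 7 markers fell and 1 rose (18.9% and 17.9% of all genes), with all 7 listed in every group. Des, the muscle intermediate filament desmin, had 494 and 652 in KO and 1655, 1632 and 2489.9 in WT total libraries, and Cdh15, Itga7 and Chrna1 fell by log2 fold changes of -1.03, -1.17 and -0.61. Myf5, another myogenic factor, rose, with 112 and 129 in KO and 55.8, 68.0 and 58.6 in WT total libraries, and Vim had a log2 fold change of -0.056 without a call. In KO against WT polysomal libraries Myod1 and Des fell and the other 5 were not called. All 8 terminal muscle markers were listed, and their summed level was 176 to 205 in KO total, 313 to 797 in WT total, 14.6 to 23.2 in KO polysomal and 18.4 to 31.8 in WT polysomal libraries. Fibroblast markers (2 of 5 listed for KO, 3 of 5 for WT) summed to at most 56.9, the 1 of 4 adipocyte markers listed (Cebpa) to at most 36.2, and the 2 of 3 leukocyte markers listed to at most 10.5. Their part in the results was not tested. Gene models that collect ribosomal RNA reads took 23.0%, 32.4% and 0.382% of listed reads in KO polysomal libraries 1, 2 and 3, against 5.86%, 14.4% and 0.666% in WT polysomal libraries 1, 2 and 3, and at most 0.147% in any total library. In these bulk samples fewer cells in S phase and less RNA per cell cannot be told apart.

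Promoters are shown for 4 members whose RNA fell in KO total libraries and whose window held an E2F-type motif, since E2F factors are known activators of this gene group. Each window runs from 250 bases before to 50 bases after the start site of its promoter entry, in RefSeq's GRCm38.p6 (mm10) build, and capitals mark the motif. For E2f2 that site is where the annotated gene span begins. For Orc1 and Uhrf1 the whole window lies inside the annotated span, which begins at chr4:108575705 and chr17:56303337. The Mcm7 site also lies inside its span, which ends at chr5:138172111. E2f2 lies at chr4:136172024-136172323 on the plus strand, Orc1 at chr4:108579204-108579503 (plus), Uhrf1 at chr17:56304063-56304362 (plus) and Mcm7 at chr5:138171834-138172133 (minus).
E2f2: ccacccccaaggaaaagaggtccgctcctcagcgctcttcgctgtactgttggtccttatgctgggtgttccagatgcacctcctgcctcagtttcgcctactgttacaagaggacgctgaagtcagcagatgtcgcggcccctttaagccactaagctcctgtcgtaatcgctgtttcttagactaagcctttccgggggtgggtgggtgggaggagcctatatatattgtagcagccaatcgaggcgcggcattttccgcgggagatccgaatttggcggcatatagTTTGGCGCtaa
Orc1: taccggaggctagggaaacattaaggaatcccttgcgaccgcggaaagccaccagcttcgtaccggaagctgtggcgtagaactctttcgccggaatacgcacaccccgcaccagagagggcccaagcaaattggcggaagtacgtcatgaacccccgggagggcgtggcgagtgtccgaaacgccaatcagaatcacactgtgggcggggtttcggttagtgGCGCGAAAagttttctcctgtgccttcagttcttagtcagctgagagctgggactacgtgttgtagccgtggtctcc
Uhrf1: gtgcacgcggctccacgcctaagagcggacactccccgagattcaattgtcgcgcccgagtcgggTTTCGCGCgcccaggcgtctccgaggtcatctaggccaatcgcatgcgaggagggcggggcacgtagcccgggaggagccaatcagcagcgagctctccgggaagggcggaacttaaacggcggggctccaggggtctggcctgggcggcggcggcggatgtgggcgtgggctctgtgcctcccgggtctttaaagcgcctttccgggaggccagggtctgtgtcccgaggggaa
Mcm7: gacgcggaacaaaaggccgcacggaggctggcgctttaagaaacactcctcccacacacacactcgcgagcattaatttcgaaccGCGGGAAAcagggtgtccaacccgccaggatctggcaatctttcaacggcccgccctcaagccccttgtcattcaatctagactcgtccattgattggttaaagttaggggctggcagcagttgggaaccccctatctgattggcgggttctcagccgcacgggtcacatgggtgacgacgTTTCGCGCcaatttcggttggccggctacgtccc
The search took both strands of TTTGGCGC, TTTCCCGC, TTTCGCGC and TTTGCCGC. A window was on hand for 35 members, and 15 of them (42.9%) held at least 1 of these motifs, against 2.61% of the 27025 genes with a window of that length. TTTGGCGC was in 7 members, TTTCGCGC in 7, TTTCCCGC in 6 and TTTGCCGC in 0, with shares over all genes of 0.585%, 0.374%, 1.24% and 0.507%. Of the 8 members with a window that fell in KO total libraries 6 held a motif, and 9 of the other 27 did. GGCGGGAA, whose complement shares 7 letters with TTTCCCGC when shifted by 1, was in 17.1% of members and 2.52% of genes, and CCAAT in 65.7% and 41.1%. A match describes letters only. The promoters of Mcm4, Gins2, Gins4, Pole, Dscc1, Rfc2, Gins1, Prim2, Ccne2 and Ccnd1 were not analysed here.

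In total RNA, the regulators E2f2 and Ccnd1 and the chromatin gene Uhrf1 had the lowest fold changes in the knockout, and the clamp-loader gene Dscc1 by far the highest. Of 45 members, 3 rose and 10 fell in KO against WT (limma, Benjamini-Hochberg adjusted p under 0.05 over 12003 genes). Over all genes tested 17.9% rose and 18.9% fell, so the share of members that fell was near that background. The members' median log2 fold change was -0.16, beside -0.020 over all genes, and 32 members were below 0 (51.4% of all genes). The 2 KO total libraries differed: the median member stood at -0.28 in library 1 and -0.070 in library 2. These are relative to the mean of the WT total libraries on the log2 scale. Below that mean were 39 members in library 1 and 27 in library 2. The median over all genes was 0.0054 and -0.039 in these libraries. Every KO library was below every WT library for 22 members (34.0% of all genes) and above for 4 (31.2% of all genes). The folds here and below are on the log2(value + 1) scale, which understates the change of low genes.

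Among licensing genes, Orc1, the ATPase subunit of the origin recognition complex, had 6.32 and 6.69 normalised read counts in KO total libraries, against 15.6, 13.4 and 16.7 in WT total libraries. Both KO values were below all 3 WT values, and the log2 fold change was -1.11 (SE 0.18, adjusted p = 0.00392). Its annotated span overlaps Prpf38a by 3632 bases and the annotated lncRNA Gm12743 by 15947 bases. As the strand used in counting is not given in the sources used here, reads from these genes cannot be told apart. Cdc6, the MCM loader, had 24.2 and 29.8 in KO and 42.3, 42.5 and 49.5 in WT total libraries, with no overlap and a log2 fold change of -0.71 (SE 0.16, adjusted p = 0.0124). Cdt1, its partner in loading, was not called: it had 65.4 and 96.4 in KO and 84.5, 77.0 and 90.5 in WT total libraries. Orc6, another subunit of the origin complex, had 45.7 and 68.0 in KO and 38.6, 46.2 and 35.8 in WT total libraries, a log2 fold change of 0.47 (SE 0.20, adjusted p = 0.0984).

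The Mcm2 to Mcm7 proteins form 1 ring, and 2 of its 6 genes were called in total RNA, both lower. Over all genes tested there, 18.9% were called lower and 17.9% higher. Mcm2 had 119 and 129 normalised read counts in KO total libraries, against 225, 227 and 243 in WT total libraries, and fell by a log2 fold change of -0.90 (SE 0.13, adjusted p = 0.00254). Mcm7 had 108 and 94.7 in KO and 151, 149 and 166 in WT total libraries, and its log2 fold change was -0.61 (SE 0.14, adjusted p = 0.0121). Neither gene's groups overlapped, nor did those of Mcm3, Mcm5 and Mcm6. Over all genes, 34.0% had every KO total library below every WT total library. Mcm3, Mcm4, Mcm5 and Mcm6 lay between -0.31 and -0.13 on the log2 scale without a call, and Mcm6, the highest of them per kilobase, had 250.3 and 235 in KO and 280.4, 285 and 266 in WT total libraries. In the other direction, 2 of the 4 GINS subunits rose (17.9% of all genes). Gins4 had 60.5 and 84.8 in KO and 46.7, 45.5 and 44.6 in WT total libraries, a log2 fold change of 0.64 (SE 0.17, adjusted p = 0.0219), and Gins3 had 21.6 and 27.0 in KO and 15.1, 18.4 and 14.98 in WT total libraries, a log2 fold change of 0.56 (SE 0.18, adjusted p = 0.0420). Gins1 and Gins2 had log2 fold changes of 0.25 and 0.16, with KO and WT values that overlapped. Cdc45 and the initiation factor Mcm10 had log2 fold changes of -0.24 and -0.28, with both KO values below all WT values and no call.

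Of the polymerases, Pole, the catalytic subunit of the leading-strand polymerase, had 37.0 and 27.6 in KO and 63.4, 69.9 and 76.1 in WT total libraries. It fell by a log2 fold change of -1.10 (SE 0.17, adjusted p = 0.00344), while Pole2, its second subunit, had a log2 fold change of -0.11 and was not called. The other 6 members of the group, which make up the primase, its partner polymerase alpha and the lagging-strand polymerase, were not called and ran from -0.42 (Pola1) to 0.03 (Pold2). Rfc1, the large subunit of the clamp loader, had 62.1 and 55.0 in KO and 87.4, 87.5 and 78.8 in WT total libraries, and fell by a log2 fold change of -0.52 (SE 0.14, adjusted p = 0.0213). The clamp itself, Pcna, had 56.8 and 89.9 in KO and 73.6, 86.3 and 102 in WT total libraries, which overlapped. Lig1, the ligase that seals Okazaki fragments, had 79.4 and 75.2 in KO and 100.2, 103 and 105 in WT total libraries, and fell by a log2 fold change of -0.40 (SE 0.13, adjusted p = 0.0388). Rpa2, a subunit of the single-strand binding complex, had 60.9 and 71.2 in KO and 51.6, 51.4 and 45.6 in WT total libraries, with both KO values above all WT values and a log2 fold change of 0.41 (SE 0.15, adjusted p = 0.0585). Rpa1, its partner, and Fen1, the flap nuclease, had log2 fold changes of 0.079 and -0.0019 without a call. None of the nucleotide genes (Rrm1 and Rrm2, the subunits of ribonucleotide reductase, and Tyms, thymidylate synthase) was called, with log2 fold changes of -0.11, -0.26 and -0.061.

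E2f2, an E2F activator, had 9.37 and 11.9 normalised read counts in KO total libraries, against 38.4, 34.7 and 36.4 in WT total libraries. Its means were 10.6 ± 1.81 (SD, n = 2) in KO and 36.5 ± 1.85 (SD, n = 3) in WT, and its log2 fold change of -1.70 (SE 0.16, adjusted p = 0.000542) was the lowest of all 45. E2f1, its close relative, had 53.7 and 49.6 in KO and 54.6, 48.5 and 48.1 in WT total libraries, and a log2 fold change of 0.036 (SE 0.14, adjusted p = 0.854). Ccnd1, cyclin D1, had 164 and 179 in KO and 389, 376 and 458 in WT total libraries, with a log2 fold change of -1.24 (SE 0.14, adjusted p = 0.00108). The E cyclins Ccne1 and Ccne2 had log2 fold changes of -0.39 and -0.35, with no overlap between groups and no call. Uhrf1, which recruits the maintenance DNA methyltransferase to new DNA, had 42.8 and 39.1 in KO and 111, 109 and 91.5 in WT total libraries, and its log2 fold change was -1.32 (SE 0.15, adjusted p = 0.000949). The 3 genes' KO values were all below their WT values, and the plot of 6 genes by library shows them.

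**Figure D1:**
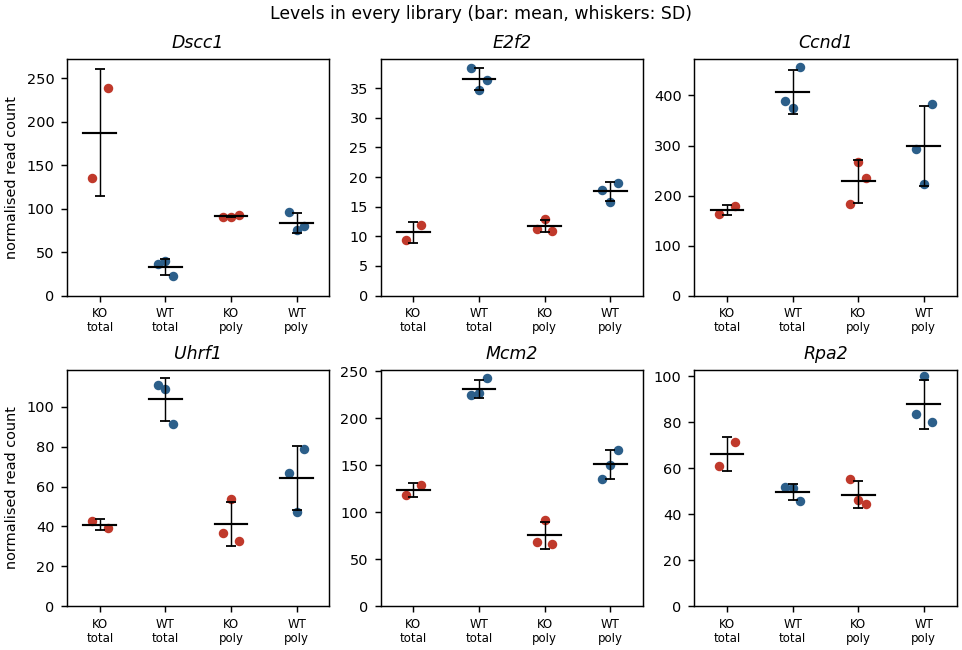
Normalised read counts (common scale, linear axis from 0) of 6 genes in every library of KO total, WT total, KO polysomal and WT polysomal RNA. Points are libraries, the bar is the group mean and whiskers are 1 SD. E2f2, Ccnd1 and Uhrf1 are lower in both KO total libraries than in any WT total library, and Dscc1 is higher in both.

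Dscc1, which belongs to the alternative clamp loader of sister chromatid cohesion, stood apart from the rest. It had 136 and 239 normalised read counts in KO total libraries, against 36.1, 39.5 and 22.3 in WT total libraries, a log2 fold change of 2.47 (SE 0.30, adjusted p = 0.00126) that was the highest of all 45. Between the other clamp-loader genes the log2 fold changes ran from -0.52 (Rfc1) to 0.49 (Rfc4). The 6 other listed genes within 500 kb of it on chromosome 15 were looked up after this value was seen. Of these, 5 passed the test upwards in KO total libraries, beside 17.9% of all genes. Mrpl13, a mitochondrial ribosomal protein gene, had 1693 and 3607 in KO and 427, 464 and 343 in WT total libraries, a log2 fold change of 2.60 (adjusted p = 0.00107). Taf2, a subunit of the general factor TFIID and the next listed gene to Dscc1, had 745 and 682 in KO and 405, 416 and 324 in WT total libraries, a log2 fold change of 0.91 (adjusted p = 0.00513). Gm9920, Deptor and Col14a1 had log2 fold changes of 1.31, 0.87 and 0.79, and Enpp2 one of -0.14 without a call. Gm9920 and Col14a1 were low, at most 4.56 and 6.14 in any total library. In KO against WT polysomal libraries Mrpl13, Taf2, Gm9920, Deptor and Col14a1 had log2 fold changes of 0.59, 1.15, 0.39, 1.71 and 1.97. Of these only Col14a1 was called there by limma (adjusted p = 0.0440), and Dscc1 stood at 0.13. Dscc1 lies at chr15:55076101-55090491 (mm10) and overlaps the annotated lncRNA Gm41325 by 6341 bases.

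Calls for Dscc1, E2f2, Uhrf1, Ccnd1, Orc1, Pole and Mcm2 held under all 12 alternatives tried, and the calls of the other 6 were lost under 2 to 6 of them. The counts of members called moved with the library left out, and not always in the direction of the share of all genes called. Without KO total library 1 there were 9 higher and 13 lower members (28.2% and 32.4% of all genes), and without KO total library 2 there were 2 higher and 16 lower (15.2% and 17.2%). Without WT total library 1, 2 or 3 there was 1 higher member (10.1%, 9.35% and 6.17% of all genes), with 7, 7 and 6 lower (10.5%, 9.55% and 7.13%).

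In polysomal RNA the knockout sat below the wild type across nearly the whole gene group, but no single member passed the test. Of 45 members, 42 were below 0, with a median log2 fold change of -0.63, beside -0.0041 over all genes, of which 50.3% were below 0. Limma called 0 members in either direction, against 1.62% of all genes higher and 0.952% lower. At an unadjusted p under 0.05, 24 members were lower and 0 higher, where 7.0% of all genes were lower and 8.94% higher. Every KO library was below every WT library for 27 members (11.1% of all genes) and above for 0 (12.5% of all genes). EdgeR's count test called 0 members lower (0.886% of all genes), DESeq2 called 11 (3.25%), and limma over all 4 groups called 14 (3.50%).

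By library, the median member was at -0.68, -0.50 and -0.70 in KO polysomal libraries 1, 2 and 3 relative to the mean of the WT polysomal libraries on the log2 scale, against 0.0054, -0.16 and 0.15 in WT polysomal libraries 1, 2 and 3. All 3 KO libraries were lower than any WT library. KO library 3 and WT library 3, which had the low ribosomal RNA shares of 0.382% and 0.666%, stood at -0.70 and 0.15. In libraries 1 and 2 the shares were 23.0% and 32.4% in KO and 5.86% and 14.4% in WT. The part of the ribosomal RNA share in these medians was not tested.

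**Figure D2:**
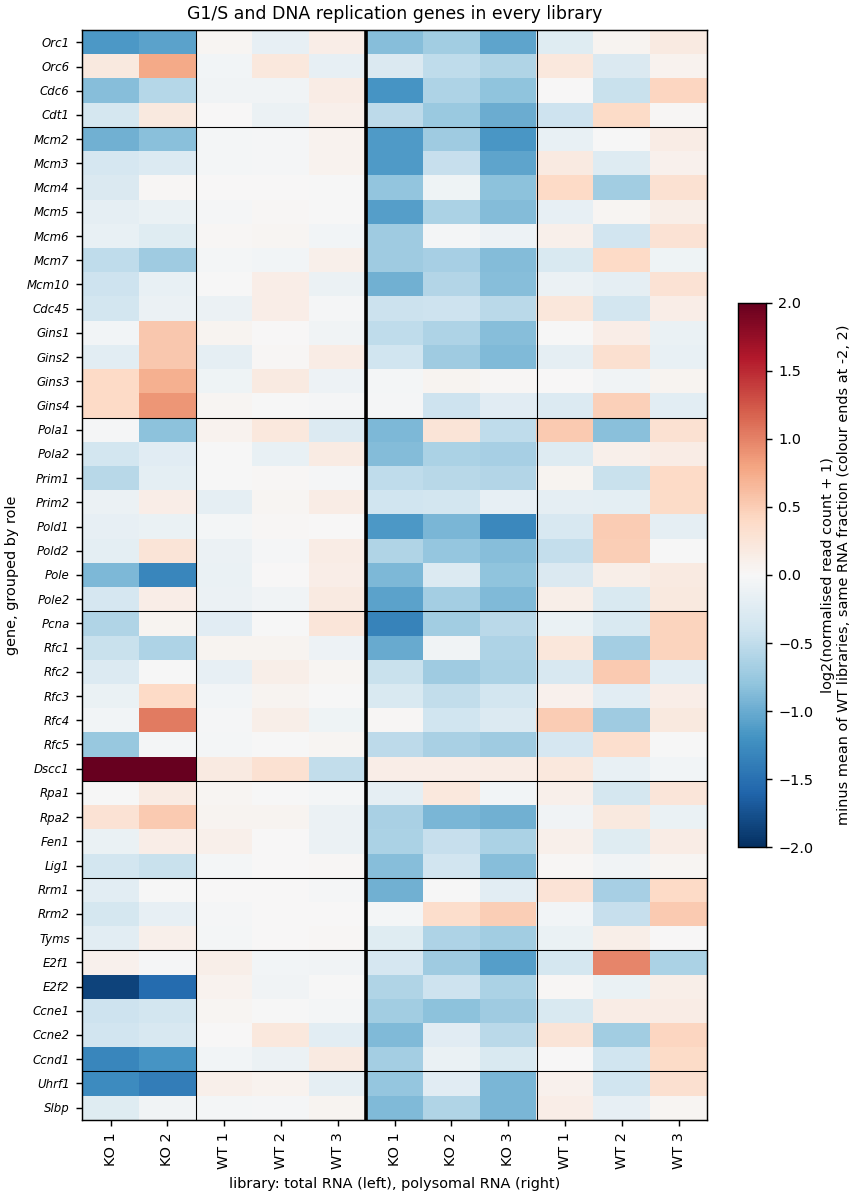
Each row is a gene and each column a library, with KO left of WT within total RNA (left side) and polysomal RNA (right side). Colour is log2(normalised read count + 1) minus the mean of the WT libraries of the same fraction, cut at -2 and 2. Among polysomal libraries the KO columns have a median member of -0.68, -0.50 and -0.70, while among total libraries Dscc1, Gins3 and Gins4 are above and E2f2, Ccnd1 and Uhrf1 below the WT mean.

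All 4 licensing genes were below 0 in KO polysomal libraries. Cdc6 had 17.5, 26.5 and 23.0 normalised read counts in KO polysomal libraries, against 41.3, 29.8 and 55.9 in WT polysomal libraries, and a log2 fold change of -0.87 (SE 0.29, adjusted p = 0.197). Orc1 had 7.99, 9.04 and 6.84 in KO and 12.8, 15.8 and 17.4 in WT polysomal libraries, a log2 fold change of -0.86 (SE 0.24, adjusted p = 0.126), and Cdt1 had 94.0, 80.3 and 67.9 in KO and 102, 177 and 138 in WT polysomal libraries, a log2 fold change of -0.75 (SE 0.26, adjusted p = 0.217). None of the 3 genes had overlapping groups. Orc6, the fourth, had a log2 fold change of -0.46 with groups that overlapped by KO library 1 and WT library 2.

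In the helicase group 11 of 12 members were below 0 in KO polysomal libraries, with a median log2 fold change of -0.66. Mcm2 had 67.8, 91.6 and 66.5 in KO and 136, 150.4 and 166 in WT polysomal libraries, and its log2 fold change of -1.004 (SE 0.22, adjusted p = 0.0634) had the smallest adjusted p of all 45. Mcm5 had 103, 143 and 121 in KO and 199, 228 and 242 in WT polysomal libraries, a log2 fold change of -0.87 (SE 0.22, adjusted p = 0.0963). Mcm3 had 76.4, 122 and 81.0 in KO and 191, 140.2 and 178 in WT polysomal libraries, a log2 fold change of -0.88 (SE 0.26, adjusted p = 0.144). All 3 were without overlap, whereas Mcm6 (120.2, 193 and 184 in KO, 211, 152 and 242 in WT polysomal libraries) and Mcm4 overlapped. The helicase genes Mcm7, Mcm10, Gins1, Gins2 and Cdc45 were also lower in every KO polysomal library, at log2 fold changes of -0.75, -0.81, -0.66, -0.66 and -0.46. Gins3, which rose in total RNA, had 28.7, 30.8 and 30.1 in KO and 29.9, 28.1 and 30.9 in WT polysomal libraries, a log2 fold change of 0.011.

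Pold1, the catalytic subunit of the lagging-strand polymerase, had 27.2, 32.2 and 24.6 in KO and 48.9, 87.6 and 53.8 in WT polysomal libraries, and its log2 fold change of -1.11 (SE 0.28, adjusted p = 0.0904) was the lowest of all 45 in this fraction. Pole2 had 11.0, 14.8 and 12.7 in KO and 26.3, 19.5 and 27.8 in WT polysomal libraries, a log2 fold change of -0.88 (SE 0.25, adjusted p = 0.130). Pola2, Prim1 and Pold2 also had every KO value below every WT value, with log2 fold changes of -0.72, -0.55 and -0.74. Pcna had 34.6, 54.3 and 60.2 in KO and 80.6, 71.1 and 120.4 in WT polysomal libraries, a log2 fold change of -0.86 (SE 0.30, adjusted p = 0.215). Rpa2 had 55.2, 46.0 and 44.2 in KO and 83.4, 99.9 and 80.0 in WT polysomal libraries, a log2 fold change of -0.84 (SE 0.21, adjusted p = 0.0933), with groups that did not overlap. Rpa1, its partner in the same complex, had 156, 206 and 173 in KO and 192, 140.1 and 211 in WT polysomal libraries, a log2 fold change of -0.0087.

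Among regulators, Ccne1 had 53.0, 48.9 and 52.9 in KO and 70.3, 96.7 and 96.4 in WT polysomal libraries, a log2 fold change of -0.74 (SE 0.22, adjusted p = 0.146). E2f2 had 11.3, 12.9 and 11.0 in KO and 17.9, 15.8 and 19.1 in WT polysomal libraries, a log2 fold change of -0.55 (SE 0.22, adjusted p = 0.277), and neither gene's groups overlapped. Ccnd1 (182, 268 and 236 in KO, 293, 222 and 383 in WT polysomal libraries) and Uhrf1 (36.6, 53.8 and 32.9 in KO, 66.7, 47.4 and 79.0 in WT polysomal libraries) overlapped between genotypes. E2f1 had 77.0, 59.6 and 44.8 in KO and 76.6, 193 and 63.0 in WT polysomal libraries, and WT library 2 stood apart from the others. Slbp, which binds the stem-loop of histone mRNAs, had 48.7, 59.8 and 47.8 in KO and 99.6, 81.0 and 93.2 in WT polysomal libraries, a log2 fold change of -0.80 (SE 0.21, adjusted p = 0.109). Rrm2 was the member farthest above 0, with 356, 472 and 518 in KO and 352, 268 and 527 in WT polysomal libraries and a log2 fold change of 0.27, and Dscc1 had 90.7, 91.0 and 92.2 in KO and 96.3, 74.9 and 79.5 in WT polysomal libraries, a log2 fold change of 0.13. The other member above 0 was Gins3, and Rpa1 was the nearest below it.

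**Figure D3:**
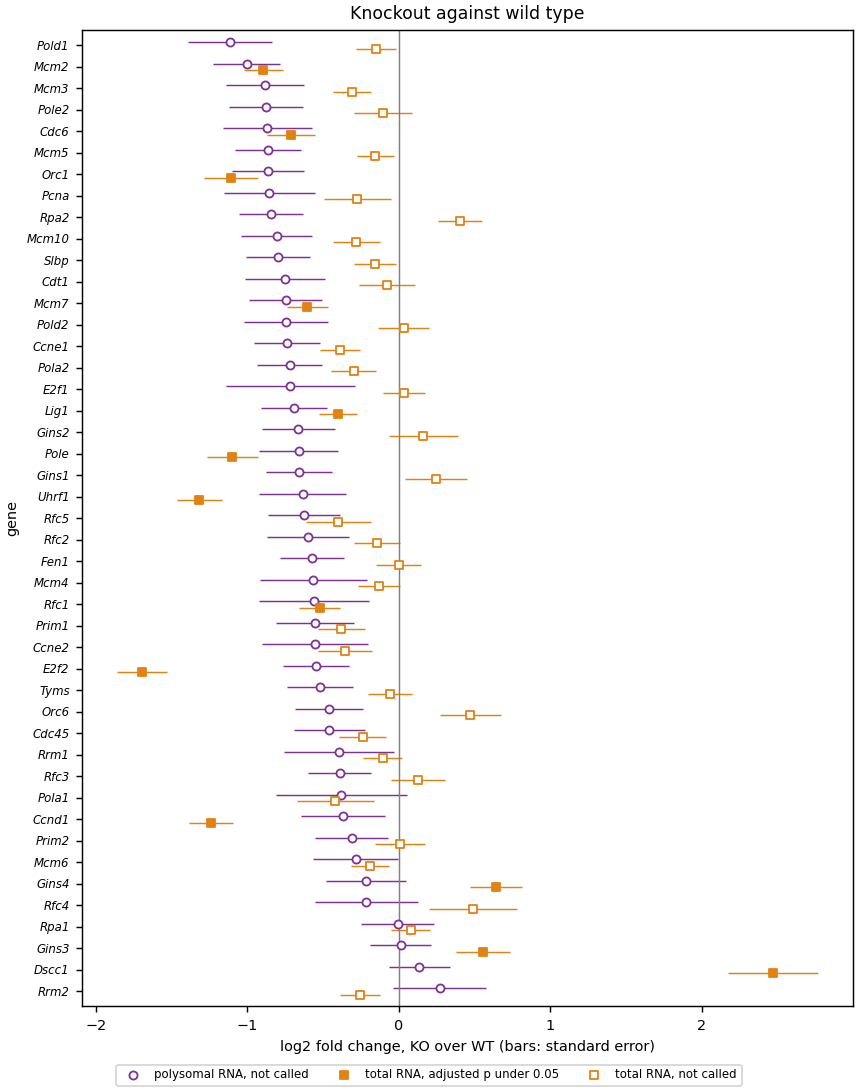
Log2 fold change of KO over WT for each gene in polysomal RNA (circles) and total RNA (squares), with standard errors, ordered by the polysomal value. Filled symbols passed an adjusted p of 0.05 and open symbols did not. Polysomal values lie below 0 for 42 of 45 genes without a call, while total values spread from -1.70 (E2f2) to 2.47 (Dscc1).

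Polysomal levels were next set against total levels within each genotype, a measure of how far an RNA is enriched on polysomes. In WT, 12 members were higher and 2 lower in polysomal than in total libraries (8.89% and 13.8% of all genes), with a median log2 fold change of 0.14, beside -0.019 over all genes. The authors' deposited table gave 14 higher and 2 lower members at an FDR under 0.05, and the share of all genes at that FDR was not worked out here. Its 2 lower members were E2f2 and Rrm1 (authors' FDR 0.00209 and 0.0448), while Mcm2 had an authors' FDR of 0.0717. Gins1 had 37.4, 41.3 and 34.1 normalised read counts in WT polysomal libraries, against 14.4, 13.9 and 13.0 in WT total libraries, and its log2 fold change of 1.39 (SE 0.17, adjusted p = 0.00312) was the highest. All 4 GINS subunits rose, with Gins4 at 0.92, Gins3 at 0.84 and Gins2 at 0.74. In contrast Mcm2, with 136, 150.4 and 166 in WT polysomal and 225, 227 and 243 in WT total libraries, fell by a log2 fold change of -0.62 (SE 0.16, adjusted p = 0.0325).

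Dscc1 had 96.3, 74.9 and 79.5 in WT polysomal and 36.1, 39.5 and 22.3 in WT total libraries, a log2 fold change of 1.36 (SE 0.26, adjusted p = 0.0122). The loader subunits Rfc2 and Rfc5 rose by 0.77 and 0.66, and Orc6, Tyms, Slbp, Rpa2 and Ccne1 by 0.89, 0.87, 0.85, 0.81 and 0.70 on the log2 scale. Rpa2 had 83.4, 99.9 and 80.0 in WT polysomal and 51.6, 51.4 and 45.6 in WT total libraries, all 3 higher. E2f2 had 17.9, 15.8 and 19.1 in WT polysomal and 38.4, 34.7 and 36.4 in WT total libraries, all 3 lower, with a log2 fold change of -1.02 (SE 0.18, adjusted p = 0.0100). No polymerase or primase gene was called. Gins1 kept its call under all 15 alternatives. Without WT total library 1, 2 or 3 there were 1, 2 and 1 higher members (0.938%, 1.19% and 0.683% of all genes) and 0 lower (3.46%, 3.60% and 3.11%). Without WT polysomal library 2 there were 20 higher and 10 lower (22.6% and 24.6% of all genes), without library 1 there were 9 and 1 (4.85% and 10.3%), and without library 3 there were 9 and 5 (10.8% and 14.8%).

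In the knockout, limma called 0 members in polysomal against total libraries, beside 0.911% of all genes higher and 1.85% lower. At an unadjusted p under 0.05, 0 members were higher and 10 lower (12.1% and 10.7% of all genes). EdgeR's count test called 0 members lower (1.84% of all genes) and DESeq2 5 (6.22%). The authors' deposited table gave 0 higher and 5 lower members at an FDR under 0.05. Its share of all genes was not worked out here, so this count has no background beside it. Mcm3 had 76.4, 122 and 81.0 in KO polysomal and 198 and 208 in KO total libraries, a log2 fold change of -1.11 (SE 0.26, adjusted p = 0.0604). The log2 fold changes of Mcm4 and Rrm1 were -1.15 and -1.15, also without a call. Dscc1 had 90.7, 91.0 and 92.2 in KO polysomal and 136 and 239 in KO total libraries, a log2 fold change of -0.93 (SE 0.28, adjusted p = 0.103). Gins1, the highest, had 26.1, 24.1 and 20.3 in KO polysomal and 13.2 and 20.4 in KO total libraries, a log2 fold change of 0.52. Without KO polysomal library 1 there were 5 lower members (6.41% of all genes) and without KO polysomal library 2 there were 2 (1.24%).

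**Figure D4:**
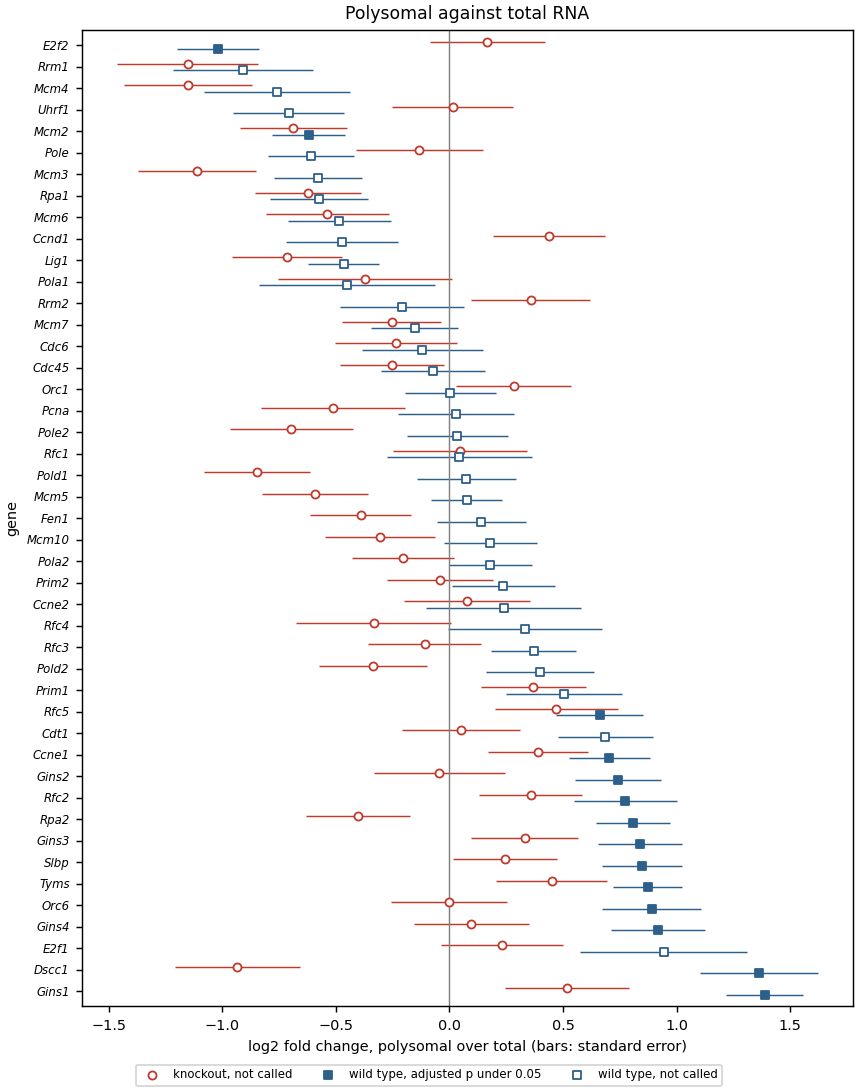
Polysomal over total log2 fold change of each gene in the knockout (circles) and the wild type (squares), with standard errors, ordered by the wild-type value. Filled symbols passed an adjusted p of 0.05: 12 higher and 2 lower in the wild type, none of the knockout values. Dscc1 lies at -0.93 in the knockout and 1.36 in the wild type.

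The change in polysomal over total RNA between genotypes was tested as the difference of both fold changes. For 38 of 45 members the difference was below 0 (KO minus WT), with a median of -0.43 on the log2 scale. Over all genes the median was 0.053 and 47.1% were below 0. The test called 1 member lower and 0 higher (0.0481% and 0.193% of all genes). At an unadjusted p under 0.05, 11 members were lower and 2 higher (9.72% and 11.0% of all genes). The called member was Dscc1, with a difference of -2.33 (SE 0.38, adjusted p = 0.0376). Its call was lost when any 1 of 8 of the 11 libraries was left out, with adjusted p between 0.0586 and 0.251 in those 8 fits and differences between -2.74 and -1.93 over all 11. The libraries were KO total 2, KO polysomal 2 and 3, WT total 1, 2 and 3, and WT polysomal 1 and 3.

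Next in order of p were Rpa2, with a difference of -1.25 (SE 0.25, adjusted p = 0.0703), and E2f2, with one of 1.15 (SE 0.26, adjusted p = 0.0796). The polysomal over total log2 fold change of Rpa2 was -0.40 in KO and 0.81 in WT, and that of E2f2 was 0.17 in KO and -1.02 in WT. Ccnd1 was the other member with a positive difference at an unadjusted p under 0.05, at 0.87 (SE 0.33). All 12 helicase genes and all 7 clamp and loader genes were below 0, with medians of -0.54 and -0.52, although Mcm6, Mcm7, Cdc45, Rfc1 and Rfc5 were above 0 under at least 1 alternative. The differences in these 2 groups ran up to -0.094 (Mcm6) and -0.037 (Rfc1).

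Gene length as the authors' deposited tables list it, which the rule did not use, ran from 1356 bases (Gins4) to 10395 bases (Pole) over the members, with a median of 3573 bases. Across the 45 members, Spearman's rho of length with the log2 fold change was -0.50 for KO against WT total and -0.38 for WT polysomal against total, beside -0.44 and -0.45 across all genes. For KO against WT polysomal it was -0.13 across members and 0.20 across all genes, and for the difference 0.47 and 0.52. These values are descriptions, since the genes share libraries. The members called higher in WT polysomal libraries had a median length of 2530 bases, against 3602 bases for those not called. With each library's trend on length removed, 1 member was higher and 15 were lower in KO against WT total libraries (18.3% of all genes in each direction), so the share of members that were lower no longer lay near the share of all genes. In KO against WT polysomal libraries 3 were then lower (1.63% of all genes), and in KO polysomal against total libraries 6 were (6.82%). Pole then stood at -0.64 in KO against WT total libraries and kept its call, while Gins3 (0.38), Gins4 (0.25), Rfc1 (-0.20) and Lig1 (-0.29) lost theirs. In WT polysomal against total libraries Orc6 (0.56), Gins3 (0.65) and Rfc2 (0.41) lost their calls under it. Per kilobase, Rrm2 had the highest mean level in total RNA, with 150.0 in KO and 179 in WT, and Orc1 the lowest, with 1.81 in KO and 4.22 in WT. Of the 45 members, 15 overlap another annotated gene, and their levels are uncertain to that extent.

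Other genes of the same pathway were taken from a list of 75, of which 72 were tested. In KO against WT total libraries 6 rose and 23 fell, beside 17.9% and 18.9% of all genes, with a median log2 fold change of -0.27. The farthest were the atypical repressors E2f8 at -2.08 and E2f7 at -1.63, the cyclin D partner kinase Cdk6 at -1.82, and Ccnd2, cyclin D2, at -1.32. Of the 6 that rose, Cdkn1a, the cyclin-dependent kinase inhibitor p21, stood at 0.88. The others were Dtymk (0.86), Rnaseh2a (0.80), Rnaseh2c (0.71), Myc (0.66) and Pold4 (0.61), all named after their values were seen. In KO against WT polysomal libraries 0 of 72 were called in either direction by limma or edgeR, 5 were lower and 0 higher by DESeq2 (3.25% and 4.59% of all genes), and 15 were lower and 1 higher at an unadjusted p under 0.05 (7.0% and 8.94%). Of the 72, 61 were below 0 there, beside 50.3% of all genes, with a median of -0.43. In WT polysomal against total libraries 15 rose and 3 fell (8.89% and 13.8% of all genes). In KO polysomal against total libraries 0 rose and 1 fell (0.911% and 1.85% of all genes), Ddb1, at -1.74. For the difference limma and edgeR called 0 of 72, DESeq2 called 3 lower and 1 higher (3.71% and 3.92% of all genes), and 8 were lower and 3 higher at an unadjusted p under 0.05 (9.72% and 11.0%). Of 40 G2/M genes, 0 rose and 23 fell in KO against WT total libraries, beside 17.9% and 18.9% of all genes, with a median of -0.57. In KO against WT polysomal libraries 34 of the 40 were below 0 (50.3% of all genes), with a median of -0.36. Limma and edgeR called 0 of them there, DESeq2 called 3 lower (3.25% of all genes), and 7 were lower at an unadjusted p under 0.05 (7.0%). The median difference of polysomal over total RNA (KO minus WT) was -0.43 for the 45 members, -0.073 for the wider list and 0.18 for the G2/M list. Of 53 histone genes, whose mRNAs Slbp binds, 51 were listed for KO and 43 for WT. Over the 41 listed for both, the summed level was 323 to 465 in KO total and 80.8 to 94.3 in WT total libraries, and 381 to 1298 in KO polysomal and 229.4 to 1112 in WT polysomal libraries. Their near-identical copies share reads and their transcripts mostly lack a poly(A) tail, so these levels are uncertain.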

How the data were processed

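RNA was sequenced from total and polysomal RNA of Ddx27-/- and wildtype C2C12 cells. The submitters' processing notes name STAR, HTSeq and edgeR, with build mm10 and no versions. The authors deposited 1 table per genotype, in which the signal of each gene is a normalised read count. Dividing by 1 factor for each library gave back whole reads for 100% of values, within 0.001 reads. The deposited tables also hold the authors' log2 fold change, the authors' p-value and FDR for polysomal against total RNA, and a gene length.

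The genotypes' tables were scaled separately, so comparisons between genotypes used a median-of-ratios scale over shared genes. Printed levels are on that scale, and tests within a genotype used the deposited scale. Genes with a value of 1 or more in at least 3 libraries were tested with limma 3.58.1 (R 4.3.3, trend on mean level) on log2(value + 1), with Benjamini-Hochberg adjustment over all genes and a threshold of 0.05. Each comparison was fitted on its 2 groups, and the difference between genotypes on all 4. The count tests of edgeR 4.0.16 and DESeq2 1.42.0 on the recovered reads were alternatives: for KO against WT total edgeR called 4 higher and 10 lower members (19.3% and 16.7% of all genes) and DESeq2 4 higher and 11 lower (22.1% and 19.8%). The test was checked on simulated data with 200 changed genes, whose changes were larger than those of most members. The simulated libraries held no trend on gene length, so the check does not cover small changes or such trends. Replicate numbers of the wild type were not used to pair the libraries in the main fits.

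Members called, and up to 4 further members per role, were named with values. The members and lists were chosen with earlier results of these data known, and the gene model Gm26924 was added to the ribosomal RNA list after its values were seen. Promoters came from RefSeq (GRCm38.p6).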

Additional observations from a re-analysis of the deposited data

Results flagged for a closer look

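The polysomal over total fold change of Dscc1 differed between the genotypes by -2.33 on the log2 scale (KO minus WT, limma over all 4 groups, adjusted p = 0.0376, 3 KO polysomal, 2 KO total and 3 WT libraries of each fraction). This call was lost under 8 of 17 alternatives, each of which left out 1 library. The polysomal over total log2 fold change was -0.93 in KO and 1.36 in WT. KO polysomal libraries lay at 90.7, 91.0 and 92.2 normalised read counts and KO total libraries at 136 and 239, while WT polysomal libraries lay at 96.3, 74.9 and 79.5 and WT total libraries at 36.1, 39.5 and 22.3.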

How the results depend on the processing

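No member called in a comparison and no median over the members changed sign there under any alternative. Members not called did: 15 of the 45 in KO against WT total under at least 1 of 12 alternatives, 4 in KO against WT polysomal, and 12 each in the other 3 comparisons. Their log2 values reached 0.49 in size, and Fen1 in KO against WT total turned to 0.012 on the TMM scale, 0.028 by edgeR and 0.033 by DESeq2. In brackets is the share of all genes called in the same fit and direction. For KO against WT total, the count of members called ranged from 1 to 9 higher and 6 to 16 lower when 1 library was left out, was 1 higher (4.73%) and 6 lower (5.79%) with all 4 groups fitted together, and was 1 higher (18.3%) and 15 lower (18.3%) with the length trend removed. For KO against WT polysomal, 0 to 2 were lower when 1 library was left out (the 2 without WT polysomal library 2, 1.72%), and 11 were lower by DESeq2 (3.25%), 3 with the length trend removed (1.63%) and 14 with all 4 groups fitted (3.50%). For WT polysomal against total, leaving out 1 library gave 1 to 20 higher and 0 to 10 lower, DESeq2 gave 8 lower (17.9%), a replicate block gave 6 higher (5.68%) and 1 lower (1243 of 12380 genes), and a replicate block with the length trend removed gave 7 higher (6.49%). Same-numbered wild-type libraries deviated together with correlations of 0.21, -0.22 and -0.072, and differently numbered ones with -0.31 to 0.26. With 3 libraries per group these values cannot decide whether same-numbered libraries share a culture, which is not stated. The main fits therefore did not use the numbers as pairs. For KO polysomal against total, leaving out 1 library gave 0 to 5 lower, DESeq2 gave 5 (6.22%) and length removal 6 (6.82%). For the difference, leaving out 1 library gave 0 to 1 higher and 0 to 2 lower, DESeq2 gave 1 higher (3.92%) and 3 lower (3.71%), and length removal gave 2 lower (0.401%). The cause of these changes was not tested. Fits that leave 1 library out also hold fewer libraries, and the part of this was not tested either. With 2 KO total libraries a fit that leaves out 1 assumes that the lone library varies like the other group.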
